A study of Homo sapiens with 3 samples.

Results

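A set of genes that mark the epithelial or the mesenchymal state of a cell, or that switch between these states, were followed in Cal62 cells silenced for ADAR1: CDH1, CDH2, EPCAM, VIM, FN1, ZEB1, ZEB2, SNAI1, SNAI2 and TWIST1. These 10 genes were chosen by symbol, through the Ensembl identifiers of the deposited gene table, and all 10 were found among its 58333 genes. All 10 passed the filter on low values, as did 20858 genes in all.

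Cal62 is an established human thyroid tumor cell line, grown here in DMEM with 10% FBS. The cells were transfected through Lipofectamine RNAimax with a negative control siRNA (siControl) or with 1 of 2 siRNAs against ADAR1 (siADAR1 #1 and siADAR1 #2). For each of these groups 2 poly(A)+ libraries were sequenced (75-bp reads, paired ends), and the 6 libraries hold 30114840 to 50029763 reads on genes. The study's methods call these libraries biologically independent replicates. How long after transfection the RNA was taken is not given in the sources used here.

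Epithelial cells hold together through E-cadherin, and keratins form their intermediate filaments. In an epithelial-mesenchymal transition, transcription factors of the ZEB, SNAI and TWIST families repress E-cadherin, while N-cadherin, vimentin and fibronectin rise. Cancer cells often stop between the ends of this path and carry markers of both states. ZEB1 and ZEB2 are also known targets of the miR-200 family of microRNAs, whose genes the ZEB proteins repress in turn.

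The miR-200 family reads the 3′ UTRs of its targets through the seed, bases 2 to 8 of the microRNA, and its 5 members fall into 2 seed groups. They are shown because the members of the gene set differ in how many matches to these seeds they carry. Seeds are in capitals, and the sequences are those of RefSeq (GRCh38.p14).
hsa-miR-200b-3p: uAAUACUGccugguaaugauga
hsa-miR-200c-3p: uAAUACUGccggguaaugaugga
hsa-miR-429: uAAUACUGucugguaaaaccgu
hsa-miR-200a-3p: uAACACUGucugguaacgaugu
hsa-miR-141-3p: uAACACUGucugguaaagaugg
The match to the first seed is CAGTATT and the match to the second is CAGTGTT, each read on the transcript strand only. In the 3′ UTR of its GENCODE canonical transcript (GRCh38), ZEB1 held 6 matches to the first seed and 3 to the second over 2540 bases. ZEB2 held 5 and 4 over 5370 bases. FN1 held 2 and SNAI2 held 1, all to the first seed, and no match was found for the other 6 genes. Of 14304 genes with such a 3′ UTR, 18.8% held at least 1 match to the first seed and 21.1% at least 1 to the second, and 1.05% and 1.28% held 3 or more. These shares are over 3′ UTRs of any length and were not matched to the lengths of ZEB1 and ZEB2. The first sites of each kind in ZEB1 and ZEB2 read as follows, with the match in capitals.
ZEB1, chr10:31527625-31527647, plus strand: tatcttatCAGTATTatcactct
ZEB1, chr10:31527719-31527741, plus strand: atccgcttCAGTATTttattatg
ZEB1, chr10:31528038-31528060, plus strand: atcagaatCAGTGTTtgtgattg
ZEB2, chr2:144389045-144389067, minus strand: ccatacatCAGTATTtttattat
ZEB2, chr2:144388982-144389004, minus strand: caatgcatCAGTATTatgattcc
ZEB2, chr2:144389229-144389251, minus strand: attttgtaCAGTGTTaaggccta
Mature microRNAs were not measured. MIR200CHG, the host transcript of miR-200c and miR-141, was counted at no more than 1 read in any library.

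The values below are normalized counts, the deposited log2 values taken back to the scale of size-factor-normalized reads. ADAR, the silenced gene, had normalized counts of 10906 and 11701 in siControl, 1328 and 2246 with siADAR1 #1, and 1663 and 2928 with siADAR1 #2. No siADAR1 library reached the siControl level. Its log2FC against siControl was -2.71 ± 0.30 (SE) with siADAR1 #1 and -2.35 ± 0.30 with siADAR1 #2 (limma adjusted p = 0.00295 and 0.00128), and the siRNAs differed by 0.35, which did not pass the test (limma adjusted p = 0.404). Of the thyroid markers, the lineage factors PAX8 (2542 to 15868 normalized counts) and HHEX were detected in every library. NKX2-1, another lineage factor, had no read in any library, and TG, SLC5A5 and DUOX2, genes of hormone synthesis, had at most 55 reads. The markers fixed for leukocytes (such as PTPRC, CD3E and CD14), endothelial cells (PECAM1, CDH5, VWF) and fibroblasts (DCN, LUM, PDGFRA, PDGFRB) summed to between 5 and 124 normalized counts per list and library.

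In the siControl cells, markers of both states were present. Levels between genes are compared in TPM over the exon-union length, a scale that lowers genes with many or long isoforms, such as ZEB2. VIM, the gene of the mesenchymal intermediate filament vimentin, stood first at 1369 ± 103 TPM (SD, n = 2), and FN1, the gene of the matrix protein fibronectin, second at 720 ± 192 TPM. The epithelial surface gene EPCAM (53.0 ± 3.51 TPM) and CDH2, the gene of N-cadherin (49.5 ± 1.80 TPM), came next, and their replicates overlapped. TWIST1 (27.1 ± 5.14 TPM) and ZEB1 (24.0 ± 4.25 TPM) also overlapped. Below them lay SNAI1 (7.49 ± 0.340 TPM), ZEB2 (3.92 ± 0.627 TPM) and SNAI2 (3.47 ± 0.808 TPM), of which the latter pair overlapped. CDH1, the gene of E-cadherin, was the lowest of the 10 at 1.37 ± 1.19 TPM, so that its SD was nearly as large as its mean. With siADAR1 #1 the first places changed, FN1 (385 ± 116 TPM) lying above VIM (169 ± 124 TPM), and CDH1 (0.634 TPM) and SNAI2 (0.577 TPM) overlapped at the end of the order. With siADAR1 #2 VIM was first again (927 ± 219 TPM against 262 ± 184 TPM for FN1) and CDH1 last (1.52 ± 1.43 TPM).

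**Figure D1:**
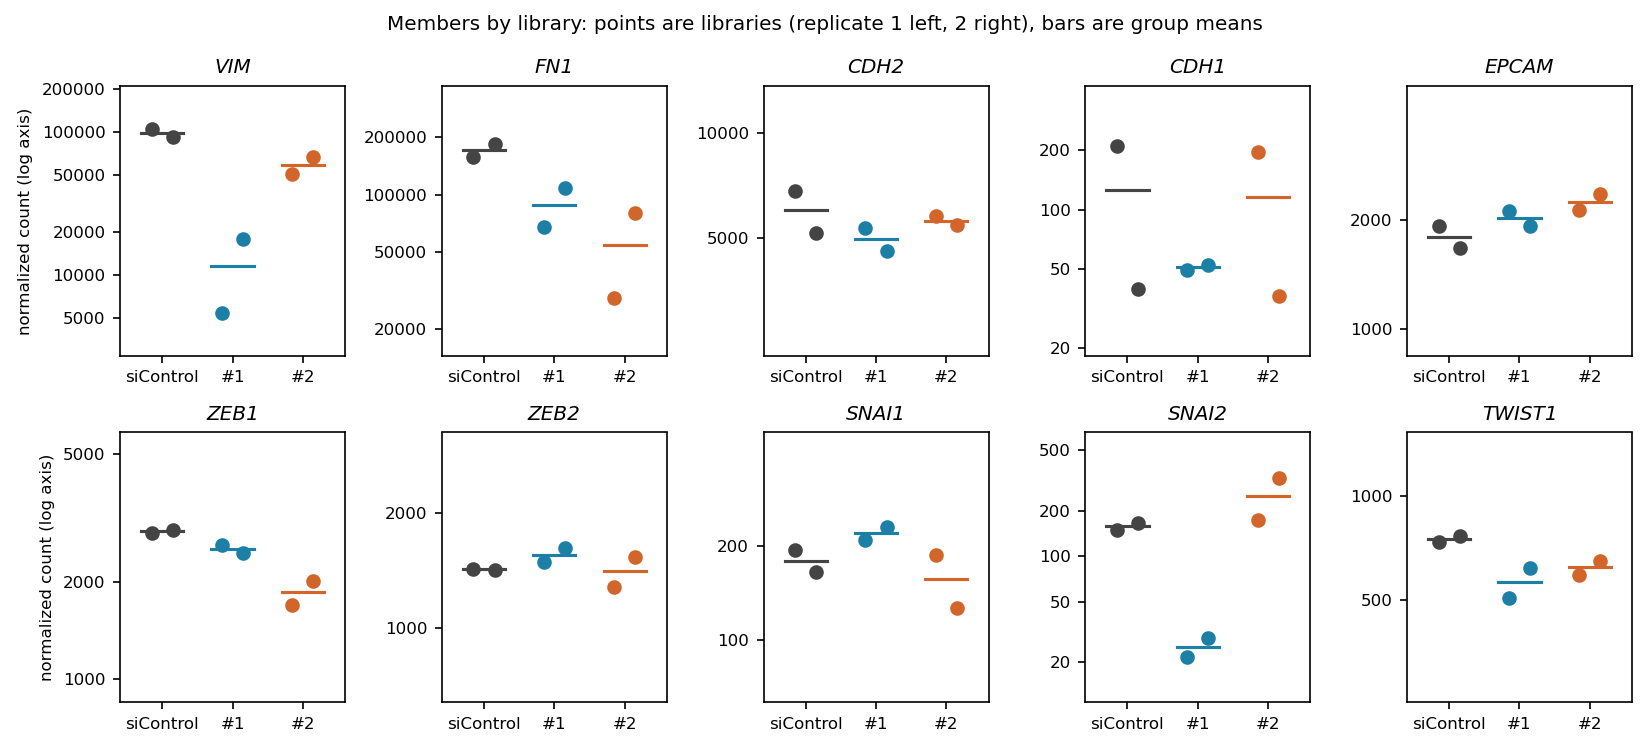
Normalized counts of the 10 genes in the 6 libraries, on a log axis that differs between panels, with 1 point per library (replicate 1 on the left) and a bar at each group mean. VIM fell from 92977 or more in siControl to 17949 or less with siADAR1 #1, and SNAI2 from 149.2 or more to 28.9 or less, while CDH1 was split within siControl and within siADAR1 #2.

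Each siRNA was compared with siControl to ask which of these genes changed upon ADAR1 silencing. A gene was called when its adjusted p was under 0.05 and its log2FC beyond 0.5 in either direction. With siADAR1 #1, 2 of the 10 genes were called, VIM and SNAI2, both downregulated, against 16.8% of all genes tested (6.18% higher and 10.6% lower). With siADAR1 #2, 2 of the 10 were called, FN1 and ZEB1, both downregulated, against 26.6% of all genes (11.1% higher and 15.5% lower). No member was called with both siRNAs in this fit and none was called upregulated with either. FN1 and VIM were each called with both under some other settings, given with their values. The median log2FC of the 10 genes was -0.34 with siADAR1 #1 and -0.16 with siADAR1 #2, and over all genes tested it was -0.02 and -0.01. With 1 library left out the median of the 10 genes ran from -0.43 to -0.13 with siADAR1 #1 and from -0.35 to -0.06 with siADAR1 #2, and it was nearest to 0 without siControl replicate 1 in both. With siADAR1 #1 it was -0.20 after median centring. Both comparisons use the same siControl libraries. Of the calls over all genes, 36.8% were higher with siADAR1 #1, a share that was 53.3% after median centring and 47.7% after quantile normalization.

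VIM (chr10:17228241-17237593, plus strand) was the member with the largest change. It had normalized counts of 105253 and 92977 in siControl, 5464 and 17949 with siADAR1 #1, and 50998 and 66855 with siADAR1 #2. All 4 siADAR1 libraries were below both siControl libraries, and both siADAR1 #1 libraries were below both siADAR1 #2 libraries. In RNA from whole cultures, fewer cells that express a gene and less of its RNA per cell cannot be told apart. With siADAR1 #1, VIM was 9.99-fold lower (log2FC -3.32 ± 0.46, limma adjusted p = 0.00457), which put it at place 31 among the falls of the 20858 genes. With siADAR1 #2 its log2FC was -0.76 (95% interval -1.81 to 0.29), which did not pass the test (limma adjusted p = 0.255). The difference between the siRNAs was tested directly and passed (log2FC 2.56 ± 0.46 for siADAR1 #2 against siADAR1 #1, limma adjusted p = 0.00373). The 2 siADAR1 #1 libraries were themselves more than 3-fold apart, and the log2FC was -4.18 to -2.46 over fits with 1 library left out. Without siControl replicate 1 the call with siADAR1 #1 was lost (log2FC -3.23, limma adjusted p = 0.0584). When only the 4 libraries compared were fitted, the siADAR1 #2 value of -0.76 passed (limma adjusted p = 0.0114), whereas quantile normalization gave -0.29 (limma adjusted p = 0.699). With siADAR1 #1 the call held when only the 4 libraries compared were fitted (limma adjusted p = 0.00635), so VIM was then called with both siRNAs. Its call with siADAR1 #2 was gained in 3 of 15 settings. The antisense gene VIM-AS1, which overlaps VIM, had 216 to 458 reads per library against 5843 to 96653 for VIM, and strand use in the counting is not given in the sources used here.

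Keratins are the epithelial counterpart of vimentin, and their share was worked out after the values had been seen. Of the summed TPM of VIM and the 4 keratins KRT7, KRT8, KRT18 and KRT19, VIM held 31.3% and 35.4% in siControl, 1.37% and 6.19% with siADAR1 #1, and 26.6% and 34.4% with siADAR1 #2. The siADAR1 #1 libraries stood apart from the other 4, whereas siADAR1 #2 overlapped siControl. The 4 keratins summed to 2844 and 2633 TPM in siControl, 5815 and 3888 TPM with siADAR1 #1, and 2125 and 2060 TPM with siADAR1 #2. The sum was highest in the siADAR1 #1 libraries and lowest in the siADAR1 #2 libraries.

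**Figure D2:**
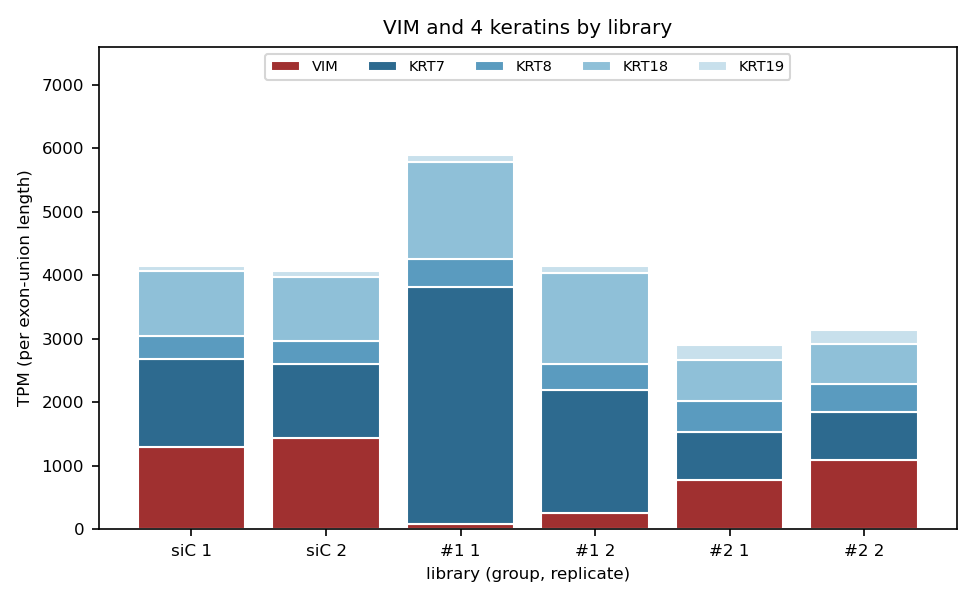
TPM of VIM and of 4 keratin genes stacked for each of the 6 libraries, with siC for siControl and the replicate number after each group. The VIM segment is 80.9 and 257 TPM with siADAR1 #1 and at least 772 TPM in the other 4 libraries, and the KRT7 segment is largest in the siADAR1 #1 libraries.

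By the rule for genes of like pattern, the 3 genes with the highest Pearson r to VIM over the 6 libraries were NRP1 (r = 0.999), TTLL4 (r = 0.998) and ZBED1 (r = 0.998). This is a description over 6 libraries in 3 groups. NRP1, a co-receptor for semaphorins and VEGF, had normalized counts of 3353 and 3154 in siControl, 337 and 855 with siADAR1 #1, and 2034 and 2679 with siADAR1 #2. Its log2FC was -2.59 with siADAR1 #1 and -0.48 with siADAR1 #2. Those of TTLL4 were -1.69 and -0.35, and those of ZBED1 -0.87 and -0.16.

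FN1 (chr2:215360440-215436073, minus strand) had normalized counts of 157815 and 183632 in siControl, 68030 and 108609 with siADAR1 #1, and 28977 and 80643 with siADAR1 #2. All 4 siADAR1 libraries were below both siControl libraries, while the 2 siRNAs overlapped. With siADAR1 #2 the gene was 3.52-fold lower (log2FC -1.82 ± 0.42, limma adjusted p = 0.0150). With siADAR1 #1 the log2FC was -0.99 ± 0.42 and did not pass (limma adjusted p = 0.152), and the difference between the siRNAs of -0.83 (95% interval -1.81 to 0.15) did not pass either (limma adjusted p = 0.167). The siADAR1 #2 replicates were far apart, and leaving out libraries in turn moved its log2FC between -2.55 and -1.08. The call with siADAR1 #2 was lost without siControl replicate 1 or replicate 2 (limma adjusted p = 0.0804 and 0.0983). With siADAR1 #2 replicate 1 or 2 left out, which are not part of the siADAR1 #1 comparison but share its estimate of the spread, the siADAR1 #1 value of -0.99 passed (limma adjusted p = 0.0262 and 0.0257). It also passed when only the 4 libraries compared were fitted (limma adjusted p = 0.0237) and under the replicate block (limma adjusted p = 0.0231), and without siADAR1 #1 replicate 1 it was -0.65 and did not pass (limma adjusted p = 0.501). Between the siRNAs the difference was -1.57 without siADAR1 #2 replicate 2 (limma adjusted p = 0.00575) and -0.092 without siADAR1 #2 replicate 1 (limma adjusted p = 0.842), and with the block the -0.83 passed (limma adjusted p = 0.0270).

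CDH2 (chr18:27932879-28177946, minus strand) had normalized counts of 6837 and 5159 in siControl, 5352 and 4575 with siADAR1 #1, and 5784 and 5431 with siADAR1 #2. The groups overlapped. Its log2FC was -0.26 with siADAR1 #1 (95% interval -0.62 to 0.10) and -0.08 with siADAR1 #2 (-0.44 to 0.28), and neither passed (limma adjusted p = 0.290 and 0.734). The sign with siADAR1 #2 turned to 0.12 without siControl replicate 1 and to 0.073 after quantile normalization. CDH2 was the main cadherin of the cells by this measure: it held 68.4% to 77.8% of the summed TPM of 19 classical and related cadherins in every library, and CDH1 held 0.652% to 3.28%.

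CDH1 (chr16:68737292-68835537, plus strand) had normalized counts of 210.2 and 39.8 in siControl, 49.6 and 52.8 with siADAR1 #1, and 196.2 and 36.6 with siADAR1 #2. The replicates of siControl and of siADAR1 #2 were more than 5-fold apart (5.28 and 5.36), replicate 1 being the higher in both, while those of siADAR1 #1 were close to each other. The gene's log2FC was -0.82 with siADAR1 #1 (95% interval -2.84 to 1.19) and -0.11 with siADAR1 #2 (-2.12 to 1.91), so changes of 2-fold in either direction lie within both intervals. Neither passed (limma adjusted p = 0.567 and 0.944). The sign with siADAR1 #1 turned to 0.34 without siControl replicate 1. The sign with siADAR1 #2 turned to 1.06 without siControl replicate 1 and to 1.07 without siADAR1 #2 replicate 2. The counts rest on 25 to 193 reads per library.

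The same split was looked for, after the CDH1 values had been seen, in the 3 lists of epithelial genes (junction and surface genes, keratins, and transcription and splicing regulators). In siControl, 7 of their 39 tested genes were at least 3-fold higher in replicate 1 than in replicate 2, a share of 17.9%, against 1.17% of all genes tested. With siADAR1 #2 it was 5 of 39 (12.8%, against 1.22%), and with siADAR1 #1 it was 1 of 39 (2.56%, against 1.00%). ELF3, a transcription factor of epithelia, had 153.5 and 15.3 normalized counts in siControl, 11.2 and 23.9 with siADAR1 #1, and 150.8 and 39.6 with siADAR1 #2. GRHL2, a factor that maintains CDH1 expression, had 51.2 and 3.06, 21.5 and 28.9, and 19.3 and 1.46 in the same order. Its lowest values rest on 3 reads in siControl replicate 2 and 1 read in siADAR1 #2 replicate 2. CLDN7, KRT5, TJP3 and PRSS8 were also among the 7 in siControl, and the P-cadherin gene CDH3 was split likewise there (126.3 and 11.2). All of these genes are low, with at most 154 normalized counts. What separates the replicates was not tested.

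**Figure D3:**
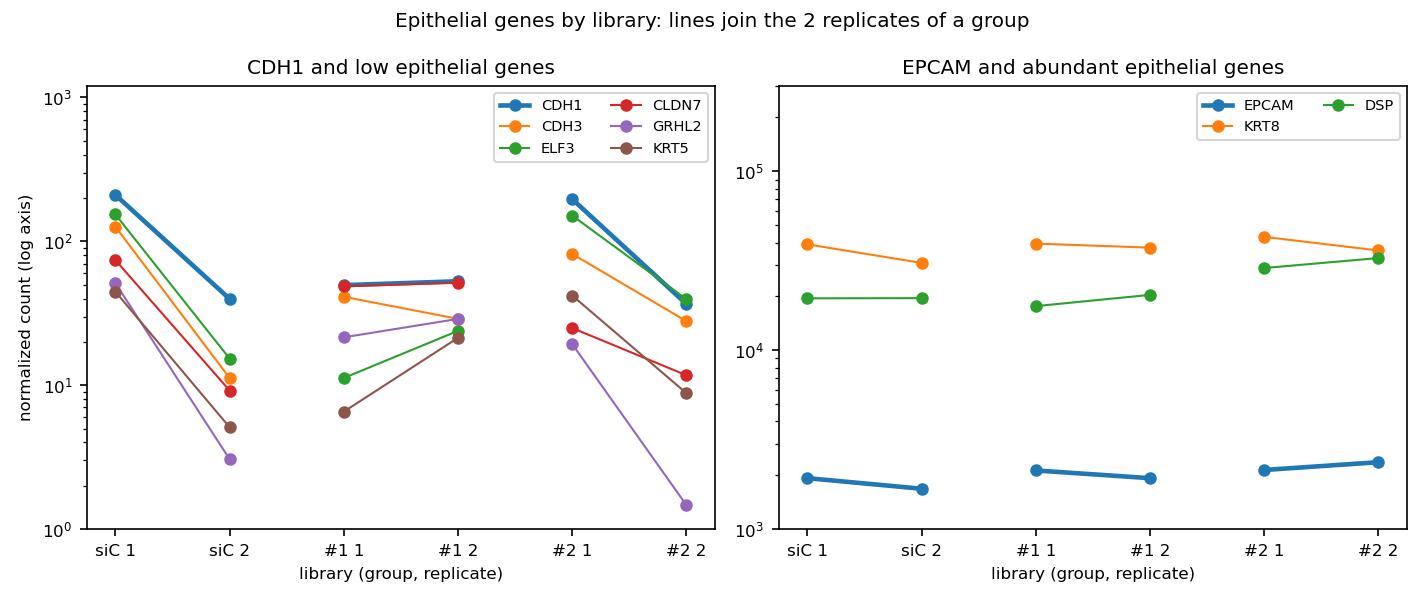
Normalized counts on a log axis for CDH1 and 5 low epithelial genes (left) and for EPCAM and 2 abundant epithelial genes (right) in each library, with lines joining the replicates of a group and genes chosen after their values were seen. The lines on the left drop from replicate 1 to replicate 2 in siControl and siADAR1 #2, and those of EPCAM, KRT8 and DSP stay within 1.5-fold in every group.

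EPCAM (chr2:47345158-47387601, plus strand), the gene of an epithelial cell adhesion molecule, did not share the split of CDH1. It had normalized counts of 1926 and 1681 in siControl, 2127 and 1926 with siADAR1 #1, and 2140 and 2366 with siADAR1 #2. The siADAR1 #2 libraries were above both siControl libraries, and the lower siADAR1 #1 library fell just under the higher siControl library. Its log2FC was 0.17 with siADAR1 #1 (95% interval -0.14 to 0.48) and 0.32 with siADAR1 #2 (0.01 to 0.63), and neither passed after adjustment (limma adjusted p = 0.431 and 0.111). After quantile normalization the siADAR1 #2 value was 0.48, past the adjusted p threshold (limma adjusted p = 0.0201) but under the size needed for a call.

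ZEB1 (chr10:31318495-31529814, plus strand), a zinc finger repressor of CDH1, had normalized counts of 2848 and 2910 in siControl, 2616 and 2467 with siADAR1 #1, and 1696 and 2021 with siADAR1 #2. The 3 groups did not overlap. With siADAR1 #2 it was 1.55-fold lower (log2FC -0.64 ± 0.13, limma adjusted p = 0.00857). With siADAR1 #1 its log2FC was -0.18 and did not pass (limma adjusted p = 0.384). The siRNAs differed by -0.46 ± 0.13, past the adjusted p threshold (limma adjusted p = 0.0270) but under the size needed for a call. Over the settings tried this adjusted p ran from 0.00952 (median centring) to 0.176 (without siADAR1 #2 replicate 1). The call with siADAR1 #2 is close to both thresholds: it was lost without siControl replicate 1 (limma adjusted p = 0.0527), siControl replicate 2 (0.0526) or siADAR1 #2 replicate 1 (0.0701), and with quantile normalization its log2FC of -0.497 was too small. ZEB1-AS1, which overlaps ZEB1 on the other strand, had 149 to 370 reads per library.

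ZEB2 (chr2:144364364-144521057, minus strand), the paralog of ZEB1 with as many miR-200 seed matches in all, is a repressor of the same kind. It had normalized counts of 1424 and 1421 in siControl, 1485 and 1614 with siADAR1 #1, and 1285 and 1535 with siADAR1 #2. The siADAR1 #2 libraries lay on both sides of siControl. Its log2FC was 0.12 with siADAR1 #1 (95% interval -0.20 to 0.44) and -0.02 with siADAR1 #2 (-0.34 to 0.30), and neither passed (limma adjusted p = 0.599 and 0.938). The sign with siADAR1 #2 turned without siADAR1 #2 replicate 1 (0.11) and after quantile normalization (0.13).

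SNAI2, the gene of the repressor Slug, differed between the siRNAs. It had normalized counts of 149.2 and 165.2 in siControl, 21.5 and 28.9 with siADAR1 #1, and 172.4 and 328.1 with siADAR1 #2. The siADAR1 #1 libraries lay below all the others and the siADAR1 #2 libraries above both siControl libraries. With siADAR1 #1 it was 5.81-fold lower (log2FC -2.54 ± 0.35, limma adjusted p = 0.00451). With siADAR1 #2 its log2FC was 0.59 (95% interval -0.21 to 1.39), which did not pass (limma adjusted p = 0.243) and moved to 1.05 or 0.13 when its own replicate 1 or replicate 2, respectively, was left out. The siRNAs differed by 3.13 ± 0.35 (limma adjusted p = 0.000546), or 8.76-fold, place 139 among the rises of that comparison. SNAI2 was counted at 23 reads in each siADAR1 #1 library. Its call with siADAR1 #1 was lost without siControl replicate 1 (log2FC -2.61, limma adjusted p = 0.0527), and its log2FC stayed between -2.73 and -2.35 over the fits with 1 library left out.

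SNAI1 (chr20:49982980-49988886, plus strand), the gene of the repressor Snail, had normalized counts of 193.8 and 164.2 in siControl, 208.5 and 229.9 with siADAR1 #1, and 187.1 and 126.0 with siADAR1 #2. The siADAR1 #1 libraries were the highest pair, and the siADAR1 #2 libraries overlapped siControl. Its log2FC was 0.29 with siADAR1 #1 (95% interval -0.30 to 0.88) and -0.21 with siADAR1 #2 (-0.80 to 0.38), and neither passed (limma adjusted p = 0.478 and 0.580). The sign with siADAR1 #2 turned to 0.07 without siADAR1 #2 replicate 2. The siRNAs differed by -0.50 (95% interval -1.09 to 0.08, limma adjusted p = 0.162).

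TWIST1 (chr7:19020991-19117636, minus strand), a basic helix-loop-helix factor of mesenchymal cells, had normalized counts of 734 and 764 in siControl, 505 and 619 with siADAR1 #1, and 592 and 650.4 with siADAR1 #2. All 4 siADAR1 libraries were below both siControl libraries. Its log2FC was -0.42 with siADAR1 #1 (95% interval -0.80 to -0.04) and -0.27 with siADAR1 #2 (-0.65 to 0.11), and neither passed after adjustment (limma adjusted p = 0.122 and 0.265).

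Libraries that did not overlap were thus found for 4 of the 10 genes, VIM, FN1, ZEB1 and TWIST1, each with all 4 siADAR1 libraries below both siControl libraries, as were 16.6% of all genes tested. None of the 10 had all 4 above, as did 12.0% of all genes. With both siRNAs taken as 1 group against siControl, limma called 0 of the 10 genes, as it called 0.0% of all genes tested. At an unadjusted p under 0.05, 1 of the 10 (FN1, log2FC -1.40, limma adjusted p = 0.284) and 2916 of the 20858 genes were counted, and voom on the recovered reads called 0 genes. That fit counts the difference between the siRNAs as spread. When the 2 siRNA changes were instead averaged in the fit of 3 groups, 3585 genes were called and 2 of the 10, VIM (limma adjusted p = 0.0109) and FN1 (limma adjusted p = 0.0323). With both siRNAs as 1 group the log2FC of VIM was -2.04 and that of SNAI2 -0.97 (limma adjusted p = 0.407 and 0.737).

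With siADAR1 #2 against siADAR1 #1, 2 of the 10 genes were called, VIM and SNAI2, both higher with siADAR1 #2, against 32.8% of all genes tested (16.7% higher and 16.1% lower). By the adjusted p alone 3 of the 10 passed, with ZEB1 as the third, against 36.4% of all genes. Of all calls in this comparison 51.0% were higher, and 40.0% after median centring. For EPCAM the siRNAs differed by 0.15 (95% interval -0.16 to 0.46), for ZEB2 by -0.14 (-0.46 to 0.18), for CDH2 by 0.18 (-0.18 to 0.54) and for TWIST1 by 0.15 (-0.23 to 0.53). For CDH1 the difference was 0.72 with an interval of -1.30 to 2.73, and it turned to -0.46 without siADAR1 #2 replicate 1.

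**Figure D4:**
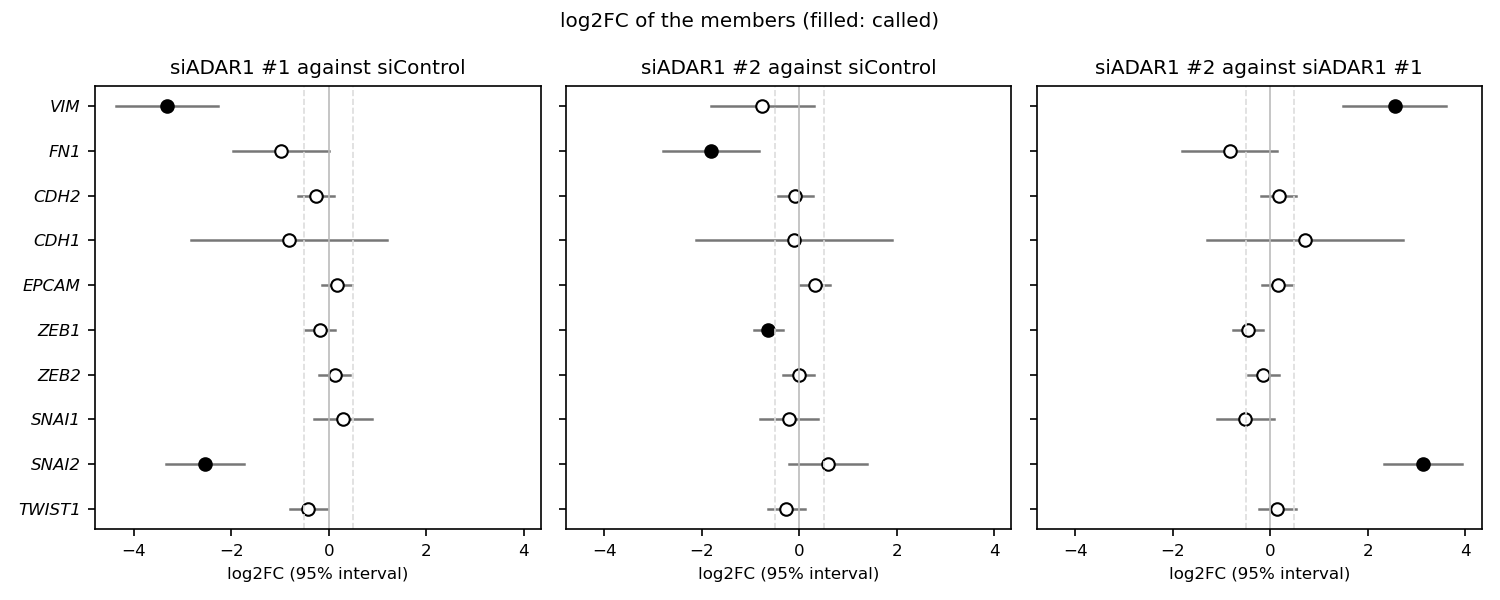
log2FC of the 10 genes with 95% intervals in the 3 comparisons, with filled points for called genes and dashed lines at a log2FC of 0.5 in either direction. VIM and SNAI2 are called with siADAR1 #1 and between the siRNAs, FN1 and ZEB1 with siADAR1 #2, and the interval of CDH1 spans zero in each panel.

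The other genes of the program were taken from 9 lists with 163 genes, of which 139 were tested. With siADAR1 #1, 39 of the 139 were called (11 higher and 28 lower), against 16.8% of all genes tested, and with siADAR1 #2, 60 were called (21 higher and 39 lower), against 26.6%. After median centring 15 were higher and 24 lower with siADAR1 #1. Without siControl replicate 1 the calls with siADAR1 #1 numbered 7, without siControl replicate 2 they numbered 20 and without siADAR1 #1 replicate 1 they numbered 17, as fewer genes passed over the whole table. Both comparisons share the siControl libraries, so their values are given side by side. The shares over all genes, here and for each list below, were not matched to the levels of the listed genes. With the filter on low values raised to log2(50), 3444 and 5120 of 14177 genes were called with siADAR1 #1 and siADAR1 #2. Both are larger shares than those over all genes tested.

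Of the other transcription factors of the mesenchymal program, 16 were tested. With siADAR1 #1, 7 were called, all lower, against 10.6% lower over all genes, with a median log2FC of -0.66. After median centring 5 were lower and 2 higher, and after quantile normalization 6 were lower and 1 higher. With siADAR1 #2, 9 were called lower and 1 higher, against 15.5% and 11.1% over all genes, with a median of -0.68. The genes called lower with both were TWIST2 (log2FC -1.93 and -1.80), the relative of TWIST1, SOX9 (-1.76 and -1.59), RUNX2 (-1.62 and -1.49), FOXC1 (-0.84 and -0.86), SIX2 (-0.71 and -0.67) and the chromatin protein HMGA2 (-0.72 and -1.48). TWIST2 had normalized counts of 1138 and 1299 in siControl, 179 and 559 with siADAR1 #1, and 255 and 475 with siADAR1 #2. The groups did not overlap between siControl and either siRNA. The AP-1 subunit FOSL1 was called with siADAR1 #2 (-2.60), and its -0.64 with siADAR1 #1 did not pass, while ETS1 was higher with siADAR1 #2 (0.83). In this list 1 gene was called with siADAR1 #1 without siControl replicate 1, and 3 when siControl replicate 2 or siADAR1 #1 replicate 1 was left out. With siADAR1 #2, 6 were called without siControl replicate 1.

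Of the mesenchymal matrix, surface and contractile genes, 28 were tested. The called share was 46.4% with siADAR1 #1 and 50% with siADAR1 #2, against 16.8% and 26.6% of all genes tested. With siADAR1 #1, 5 were higher and 8 lower (median log2FC -0.11, and 0.03 after median centring or without siControl replicate 1), and with siADAR1 #2, 4 were higher and 10 lower (median -0.28). Lower with both were the collagen I genes COL1A1 (-0.80 and -0.91) and COL1A2 (-1.60 and -1.69), the collagen crosslinker LOXL2 (-1.30 and -1.66), the membrane protease MMP14 (-1.02 and -0.84) and the tropomyosin TPM2 (-1.37 and -1.51). Higher with both was CCN2 (2.55 and 1.45), a matricellular protein gene, and CCN1 was higher with siADAR1 #1 (1.35). With siADAR1 #2 the lysyl oxidase gene LOX (2.22) and SPARC (1.72) were higher. With siADAR1 #1, COL5A1 (-2.73), WNT5A (-2.95) and FAP (-2.96) were lower, and WNT5A and FAP rest on 1 to 4 reads in each siADAR1 #1 library. In this list 2 genes were called with siADAR1 #1 without siControl replicate 1, 7 when siControl replicate 2 was left out and 6 when siADAR1 #1 replicate 1 was. With siADAR1 #2, 9 were called without its replicate 1.

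Of the epithelial junction and surface genes, 24 were tested. Calls made up 16.7% of them with siADAR1 #1 and 33.3% with siADAR1 #2, against 16.8% and 26.6% of all genes tested. With siADAR1 #1, 2 were higher and 2 lower (median log2FC -0.12, 0.03 after median centring and 0.09 without siControl replicate 1), and with siADAR1 #2, 5 were higher and 3 lower (median 0.21). CLDN1, a tight junction claudin, was higher with both (1.66 and 0.78). F11R, the junctional adhesion molecule A gene, was lower with siADAR1 #1 (-1.76) and higher with siADAR1 #2 (1.00). With siADAR1 #1, LSR was higher (0.91). With siADAR1 #2, the tight junction gene CGN (2.29) and the desmosomal gene PKP2 (2.27) were higher, while the desmosomal cadherins DSG2 (-1.72) and DSC2 (-1.57) and the tight junction gene OCLN (-1.05) were lower. In this list 2 genes were called with siADAR1 #1 without siControl replicate 1, siControl replicate 2 or siADAR1 #1 replicate 1.

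Of the 6 keratins tested, KRT7 was called with siADAR1 #1 (1.01), and with siADAR1 #2 KRT17 (5.71) and KRT19 (1.18) were higher and KRT7 (-0.92) and KRT18 (-0.85) lower. That made 16.7% and 66.7% of these keratins, against 16.8% and 26.6% of all genes tested. KRT17, a keratin of basal and injured epithelia, had at most 13.8 normalized counts in the siControl and siADAR1 #1 libraries and 408.2 and 310.5 with siADAR1 #2. KRT7 had 87290.1 and 57869 in siControl, 195105 and 104894 with siADAR1 #1, and 38358 and 36763 with siADAR1 #2. The 3 groups did not overlap, and the siRNAs moved KRT7 in opposite directions. The call of KRT7 with siADAR1 #1 was the only one in the list, and 0 keratins were called with siADAR1 #1 without either siControl library, without siADAR1 #1 replicate 1 or without either siADAR1 #2 library, and 2 after median centring or quantile normalization. The median log2FC of the keratins was 0.33 with siADAR1 #1 and 0.22 with siADAR1 #2, where it turned to -0.50 without siControl replicate 2 and to -0.34 without siADAR1 #2 replicate 1.

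Of the 9 epithelial transcription and splicing regulators tested, KLF5 was higher with both siRNAs (1.14 and 1.80). KLF4 was higher (1.45) and the pioneer factor FOXA1 lower (-1.35) with siADAR1 #2. These calls made 11.1% of the list with siADAR1 #1 and 33.3% with siADAR1 #2, against 16.8% and 26.6% of all genes tested. KLF5 had normalized counts of 757 and 627 in siControl, 1661 and 1393 with siADAR1 #1, and 3033 and 1914 with siADAR1 #2. The 3 groups did not overlap. The list's median log2FC was 0.05 and -0.18, and it changed sign with 1 library left out in both comparisons (-0.32 and 0.73 at the extremes). The call of KLF5 with siADAR1 #1, the only one there, was lost without either siControl library and without siADAR1 #1 replicate 1.

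Among the partners of the cadherins, 13 catenins and junction adaptors were tested. Called were 23.1% of them with siADAR1 #1 and 38.5% with siADAR1 #2, against 16.8% and 26.6% of all genes tested. With siADAR1 #1, 3 were called lower (median log2FC -0.15): PKP4 (-1.48), the actin linker VCL (-0.66) and CTNND1 (-0.50), the gene of p120-catenin. With siADAR1 #2, VCL (-0.70), CTNNB1 (-0.64), the gene of beta-catenin, and NECTIN1 (-1.69) were lower, and ARVCF (0.74) and NECTIN2 (0.53) higher (median 0.01, and -0.14 without siControl replicate 2). Called genes of this list numbered 1 with siADAR1 #1 without siControl replicate 1 or siADAR1 #1 replicate 1, while with siADAR1 #2 they numbered 3 without siControl replicate 1 and 2 without siADAR1 #2 replicate 1. Of 11 other cadherins tested, limma called CDH4 with siADAR1 #1 (-1.84, on 3 and 5 reads in those libraries) and 0 with siADAR1 #2, with median log2FC values of -0.18 and 0.27. The calls were thus 9.09% and 0% of these cadherins, beside the same shares over all genes. The median with siADAR1 #1 was -0.04 after median centring, 0.12 without siControl replicate 1 and 0.06 without siADAR1 #1 replicate 2. The CDH4 call was lost when either siControl library or siADAR1 #1 replicate 1 was left out.

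Of 20 corepressors and turnover genes of the SNAI and ZEB proteins, 1 was higher and 6 lower with siADAR1 #1 (median log2FC -0.20), and 3 were higher and 6 lower with siADAR1 #2 (median -0.36). Thus 35% and 45% of the list were called, against 16.8% and 26.6% of all genes tested. CTBP2, a corepressor that ZEB proteins bind, was higher with both siRNAs (0.62 and 0.77). The histone methyltransferase EZH2 (-0.86 and -0.63), the kinase GSK3B (-0.72 and -0.67), which marks Snail for degradation, and LOXL3 (-0.89 and -1.11) were lower with both. PAK1 was lower with siADAR1 #1 (-0.77). With siADAR1 #2, SUV39H1 (-1.13) and HDAC1 (-0.68) were lower and LATS2 (1.22) and FBXW7 (0.63) higher. With siADAR1 #1, 0 of these genes were called without siControl replicate 1, and 4 without siControl replicate 2 or siADAR1 #1 replicate 1.

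TGF-beta signaling is a known inducer of the SNAI and ZEB factors, and 12 of its ligands, receptors and SMADs were tested. Of these, 16.7% were called with siADAR1 #1 and 58.3% with siADAR1 #2, against 16.8% and 26.6% of all genes tested. With siADAR1 #1, SMAD3 was higher (0.68) and the inhibitor SKI lower (-1.12), with a list median of -0.06 that was 0.09 after median centring and 0.04 without siControl replicate 1. With siADAR1 #2, 2 were higher and 5 lower (median -0.07, 0.02 after quantile normalization and 0.04 without siControl replicate 1). Both signaling receptors, TGFBR1 (-2.00) and TGFBR2 (-1.44), were among those lower, as was SMAD3 (-0.89), and the ligand TGFB2 (3.54) and the coreceptor TGFBR3 (1.18) were higher. TGFBR1 had normalized counts of 3854 and 2505 in siControl, 6398 and 4099 with siADAR1 #1, and 719 and 836 with siADAR1 #2. The siADAR1 #2 libraries lay below all the others. TGFB2 had 143.7 and 26.5 in siControl, 35.5 and 5.02 with siADAR1 #1, and 875 and 652 with siADAR1 #2. Its siControl replicates were split with replicate 1 the higher, like those of CDH1. Unlike those of CDH1, its siADAR1 #1 replicates were split as well and its siADAR1 #2 replicates lay closer together. In this list 4 genes were called with siADAR1 #2 without its replicate 1, and 1 with siADAR1 #1 without either siControl library or without siADAR1 #1 replicate 1.

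**Figure D5:**
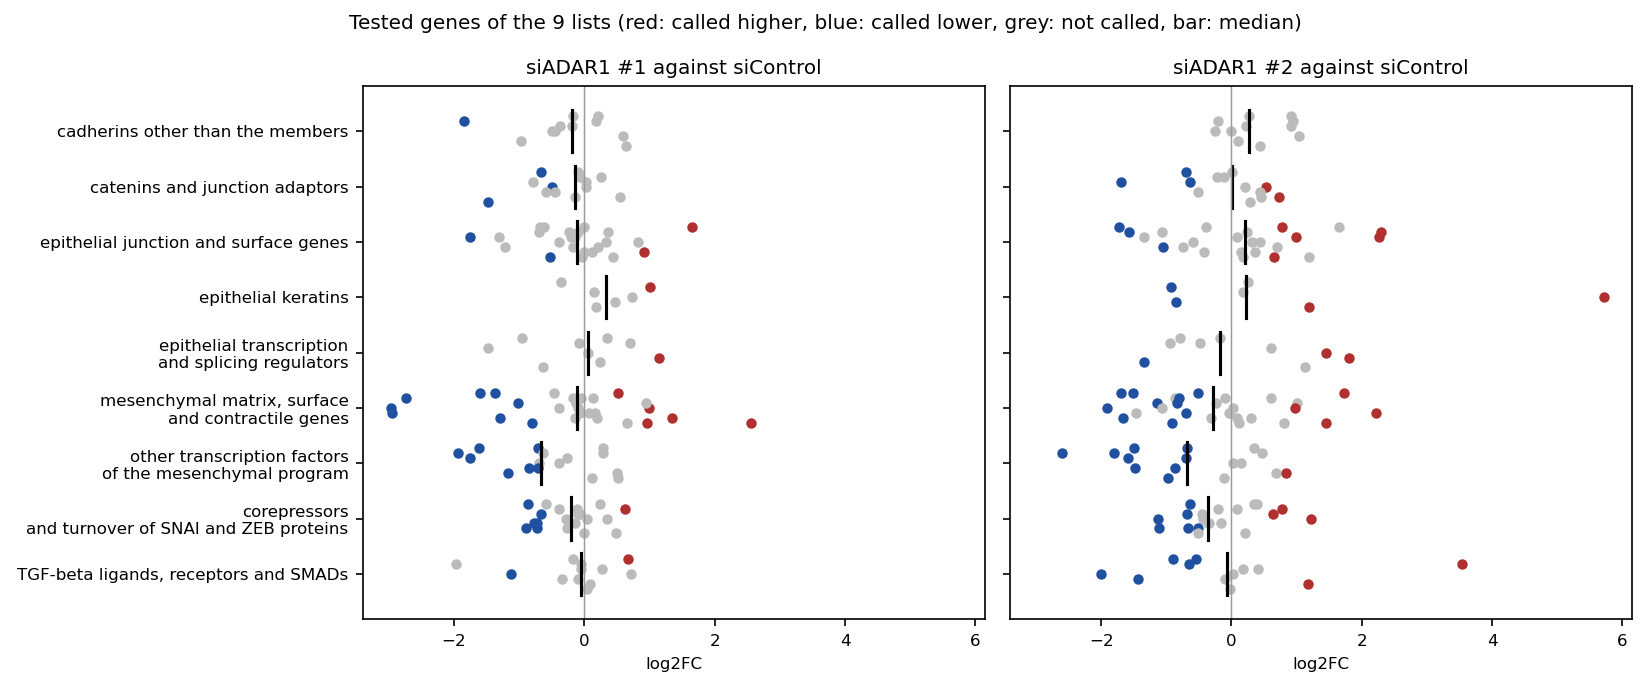
log2FC against siControl of the tested genes in the 9 lists, for siADAR1 #1 (left) and siADAR1 #2 (right), with 1 point per gene, red and blue for genes called higher and lower, grey for genes not called and a bar at each list's median. The bar of the other mesenchymal transcription factors lies at -0.66 and -0.68, and the point farthest to the right is KRT17 with siADAR1 #2 (5.71).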

How the data were processed

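The authors trimmed adapters with Atropos, made gene counts with featureCounts (bcbio-nextgen pipeline) and normalized with DESeq2, preferring Salmon estimates. The aligner behind the gene counts is not named in the sources used here (STAR was used for the splicing analysis). The submitters' processing notes name GRCh38, FastQC, featureCounts and Salmon. The deposited values are log2 values after a variance-stabilizing transformation. Undoing it returned whole reads for 100% of values in every library (tolerance 0.1). The table has 2 columns for each labelled sample, taken as the 2 replicates of the study's methods.

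The log2 values were tested with limma 3.58.1 in R 4.3.3 (lmFit, eBayes with trend, two-sided, Benjamini-Hochberg over all genes tested) in a fit of 3 groups with 3 residual degrees of freedom. The fit with both siRNAs as 1 group had 4. Testing required a mean deposited log2 value of at least 3.32 over the 6 libraries, a cutoff that corresponds to 7.617 normalized counts. Log2FC, SE and 95% intervals are on the deposited log2 scale, which understates changes of low genes. TPM was computed from the recovered reads over GENCODE 44 exon unions.

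The 10 genes, the lists and the tests were chosen with earlier results of these data known. Besides the 10 genes and ADAR, the text names up to 3 called genes per list, direction and siRNA, list genes called alike with both siRNAs, and the 3 genes most like VIM. Some list genes are not reported here. Alternatives were another filter, scaling, eBayes without trend, another log scale, voom on the recovered reads, fewer libraries and the replicate block. The lists were refitted under some of these after their values were seen. The steps were tested on simulated data.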

Additional observations from a re-analysis of the deposited data

Results flagged for a closer look

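The change against siControl differed between the siRNAs for 3 of the 10 genes, by the adjusted p alone of the limma test of siADAR1 #2 against siADAR1 #1, which 36.4% of all genes tested passed. For VIM the difference was 2.56 on the log2 scale (limma adjusted p = 0.00373), with both siADAR1 #1 libraries below both siADAR1 #2 libraries. For SNAI2 it was 3.13 (limma adjusted p = 0.000546), with the same order of libraries. For ZEB1 it was -0.46 (limma adjusted p = 0.0270), with both siADAR1 #2 libraries below both siADAR1 #1 libraries, a size too small for a call. After median centring the ZEB1 difference was -0.58 and was called (limma adjusted p = 0.00952), and a call was gained in 2 of 15 settings. The adjusted p of ZEB1 was 0.0534 without the filter on low values, 0.0835 without the eBayes trend and up to 0.176 with 1 library left out. Single outlying libraries could not be tested in groups of 2.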

How the results depend on the processing

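Of 600 refitted log2FC values of the 10 genes, 563 kept their direction and their side of the threshold, 10 lost and 13 gained it, and 14 changed sign. Another filter, eBayes without trend and the replicate block leave the log2FC unchanged, so its sign could not change there. Nor could it when only libraries outside the comparison were left out. Only the 2 members called in each of the 3 comparisons of groups could lose a call. With siADAR1 #2, FN1 and ZEB1 each lost theirs in 4 of 15 settings. Median centring moved the median log2FC of all genes with siADAR1 #1 from -0.02 to 0.12. With siADAR1 #1 (3502 genes and 2 members called), eBayes without a trend called 1347 genes, and leaving out 1 library gave 392 to 3680 genes and 0 to 3 members, 0 of them without siControl replicate 1. With siADAR1 #2 (5541 and 2), quantile normalization called 0 members and eBayes without a trend 1 (FN1 lost its call in both, limma adjusted p = 0.0676 and 0.0672), and leaving out 1 library gave 3150 to 5758 genes and 0 to 3 members. Between the siRNAs, leaving out 1 library gave 2 to 4 members. With both siRNAs as 1 group, averaging the 2 siRNA effects in the fit of 3 groups called 3585 genes and 2 members (VIM and FN1) in place of 0 and 0. Values that changed sign, none of them called, are given as their range over fits with 1 library left out. CDH1 ran from -1.99 to 0.34 with siADAR1 #1, -1.28 to 1.07 with siADAR1 #2, -0.46 to 1.89 between the siRNAs and -1.63 to 0.70 with both siRNAs as 1 group. With siADAR1 #2, CDH2 ran from -0.29 to 0.12, ZEB2 from -0.15 to 0.11 and SNAI1 from -0.49 to 0.068, and quantile normalization gave 0.073 for CDH2 and 0.13 for ZEB2. With both siRNAs as 1 group, CDH2 ran from -0.38 to 0.030 and SNAI1 from -0.079 to 0.22. The causes were not tested. Same-numbered libraries deviated together with correlations of 0.106, 0.110 and 0.162 over 20858 genes, but with 2 numbers the libraries share only a number. With the replicate block 4086, 6038 and 7275 genes and 3, 2 and 3 members were called in the 3 comparisons of groups (FN1 was gained with siADAR1 #1 and between the siRNAs), and 0 genes with both siRNAs as 1 group. The number of libraries limits all of these values. CDH1, SNAI1 and SNAI2 were also the lowest of the 10 genes in counts, with 21.5 to 328.1 normalized counts per library. How much read depth adds to their spread was not tested.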
